A study of Mus musculus with 35 samples.

Results

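Oct4, the transcription factor encoded by Pou5f1, was lowered by siRNA in mouse ES cells while a GATA6 transgene drove them towards primitive endoderm (PrE), and the transcripts were compared after 48 h with those of cells given a non-targeting control siRNA. The comparison covers 12 of the 35 RNA-seq libraries of the series, 6 with control siRNA (siCTL) and 6 with Oct4 siRNA (siOct4), chosen by the siRNA and the time in the sample titles. All 12 came from a clone of the KH2 ES line (C57BL/6 x 129/Sv) with a doxycycline (Dox) inducible GATA6 cassette, and both groups received Dox at 1 µg/mL together with the siRNA pool. The libraries of a group are described as independent knockdown experiments. Cells grew in serum and LIF on inactivated fibroblast feeders, and the feeders were removed by adsorption before lysis. The other 23 libraries followed Dox induction without siRNA and XEN cells, an extra-embryonic endoderm line. The siRNA table holds 6275 genes of the 44853 symbols in the induction table, a list of GATA6-responsive genes drawn up by the authors, and other genes were not analysed here.

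Oct4 holds ES cells and the epiblast in the pluripotent state and keeps the trophectoderm programme silent. The trophectoderm is the outer epithelium of the blastocyst, it gives rise to the placenta, and it is known for simple keratins, tight junctions and transcription factors such as Cdx2, Gata2, Tfap2c and Hand1. The PrE is the inner epithelium that forms the yolk sac endoderm, depends on Gata6, Gata4, Sox17 and Hnf factors, lays down basement membrane and takes up maternal proteins through apical receptors such as cubilin.

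Values are TPM, transcript levels scaled to transcript length and to a fixed total per library. Differences are siOct4 minus siCTL on the log2(TPM + 1) scale, fitted with limma with the replicate number as a block, which pairs the libraries. A gene is called when its Benjamini-Hochberg adjusted p over all 6264 genes tested is under 0.05 and its log2 difference is above 0.5 in size. TPM keeps no read number, so depth is unknown and the spread between libraries is the error used throughout. The libraries differed in ways the siRNA does not describe. Listed genes made up between 27.5% and 35.6% of a library, and median-of-ratios size factors ran from 0.672 in siOct4 replicate 3 to 1.34 in siCTL replicate 4. Deviations from a gene's mean also followed its exon length to differing degrees. The slope per doubling of length ran from -0.209 in siCTL replicate 3 to 0.187 in siCTL replicate 4. In siOct4 it ran from -0.17 in replicate 3 to 0.095 in replicate 5. Same-numbered libraries deviated together (correlations of 0.24 to 0.71 across genes), and so did libraries 1 and 2 and libraries 5 and 6 within each group (0.31 to 0.71) and libraries 3 and 4 of siOct4 (0.56). If such neighbours share a source, 6 overstates the replication of each group and the p-values are too small, which was not tested. The summed level of 13 feeder fibroblast markers ranged from 68.0 to 462 TPM in siCTL and from 89.5 to 519.7 TPM in siOct4, none of the 13 was at 0 in any library and none was called.

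The targeted transcript was lower in every pair. Pou5f1 was at 782, 895 and 1194 TPM (lowest, median and highest of 6) in siCTL and at 282, 314 and 387 TPM in siOct4. The groups did not overlap, and the control mean was 2.89-fold the siOct4 mean (log2 difference of -1.52 ± 0.09, SE, limma adjusted p = 6.19e-06). Gata6 was at 92.6, 110.4 and 198 TPM in siCTL and at 51.2, 88.1 and 130.2 TPM in siOct4, lower in 6 of 6 pairs, with overlapping groups and a difference of -0.50 ± 0.14 (SE) that did not pass (limma adjusted p = 0.0503). After rescaling Gata6 was lower in 4 of 6 pairs (-0.35, limma adjusted p = 0.12). Reads of the transgene and of the endogenous Gata6 are summed in this value.

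Of the genes tested, 385 were called lower with siOct4, which is 6.15% of them, and 152 higher, which is 2.43%. The lower genes had a median difference of -0.81 and 103 of them passed -1. The higher genes were fewer but moved further, with a median of 0.94 and 69 of them above 1. The sign was the same in all 6 pairs for 360 of the 385 and for 139 of the 152. Groups did not overlap for 92 of the lower and 47 of the higher genes, against 1.82% and 0.814% of all genes tested. As deposited, the median difference over all genes was -0.12. Median-of-ratios rescaling moved it to 0.01 and gave 296 lower genes (4.74%) and 307 higher genes (4.91%). The share of higher genes among those called thus rose from 28.3% to 50.9%. The size factors come from the listed genes alone, so a real shift shared by most of them would be removed as well. All 152 higher genes and 284 of the 385 lower genes kept their call after rescaling. Without the replicate block, 108 and 59 genes were called.

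The start sites of 5 genes are shown because the results turn on them. Cubn and Nostrin had the largest falls, S100g the largest rise, and Krt8 and Krt18 lie next to each other and encode the keratin pair of simple epithelia. Each line is the RefSeq promoter of build GRCm38.p6 (mm10), 300 bases that run from upstream of the start to shortly after it, 5′ to 3′ on the gene's strand. Capitals mark any match, on either strand, to a motif of the GATA family written AGATAA, to the octamer of Oct4 written ATGCAAAT, or to a motif of SOX factors written ACAATG. The Cubn window is chr2:13491827-13492126 (minus strand), Nostrin chr2:69135550-69135849 (plus), S100g chrX:162964550-162964849 (minus), Krt8 chr15:102004293-102004592 (minus) and Krt18 chr15:102027966-102028265 (plus).
Cubn: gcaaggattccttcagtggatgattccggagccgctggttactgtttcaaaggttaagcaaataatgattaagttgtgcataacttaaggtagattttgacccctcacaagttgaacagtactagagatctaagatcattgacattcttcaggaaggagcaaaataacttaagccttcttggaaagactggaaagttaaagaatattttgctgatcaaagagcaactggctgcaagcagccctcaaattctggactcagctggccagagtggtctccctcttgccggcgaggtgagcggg
Nostrin: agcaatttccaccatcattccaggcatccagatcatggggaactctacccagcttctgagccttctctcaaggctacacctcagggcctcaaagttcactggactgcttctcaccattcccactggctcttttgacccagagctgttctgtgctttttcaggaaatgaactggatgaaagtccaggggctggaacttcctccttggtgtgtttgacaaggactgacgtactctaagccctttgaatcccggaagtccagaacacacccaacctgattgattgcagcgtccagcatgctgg
S100g: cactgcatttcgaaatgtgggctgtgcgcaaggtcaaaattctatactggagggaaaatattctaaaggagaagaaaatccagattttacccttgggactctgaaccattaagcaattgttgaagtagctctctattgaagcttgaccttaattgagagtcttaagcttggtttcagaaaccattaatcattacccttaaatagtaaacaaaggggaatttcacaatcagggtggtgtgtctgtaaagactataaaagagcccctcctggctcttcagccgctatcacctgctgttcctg
Krt8: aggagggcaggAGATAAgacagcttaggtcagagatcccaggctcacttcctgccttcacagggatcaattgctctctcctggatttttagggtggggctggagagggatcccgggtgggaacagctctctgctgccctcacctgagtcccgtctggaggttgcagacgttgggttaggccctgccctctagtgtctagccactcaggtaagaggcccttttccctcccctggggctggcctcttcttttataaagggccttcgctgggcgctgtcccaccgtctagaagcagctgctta
Krt18: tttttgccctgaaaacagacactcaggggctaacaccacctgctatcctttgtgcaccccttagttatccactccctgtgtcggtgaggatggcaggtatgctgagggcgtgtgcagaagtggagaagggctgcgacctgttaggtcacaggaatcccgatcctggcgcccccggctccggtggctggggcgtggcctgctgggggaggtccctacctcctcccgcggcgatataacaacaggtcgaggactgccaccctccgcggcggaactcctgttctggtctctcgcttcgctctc
A single match was found in these windows, AGATAA in Krt8, at -239 bases from the start. AGATAA was present in 11.2% of all 32851 promoters in the table, in 6.57% of those of listed genes, in 8.17% of those of genes called lower and in 7.69% of those of genes called higher. ATGCAAAT was present in 1.74% of all promoters, in 1.58%, 2.45% and 1.28% of the same sets, and ACAATG in 12.6%, 7.33%, 8.45% and 9.62%. A match or its absence in these windows says nothing about binding. Promoters were found for 279 of the 385 lower and 114 of the 152 higher genes.

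Trophectoderm genes had the highest median difference of the 28 lists. Of 42 genes listed, 30 were tested, of which 20 were called higher and 2 lower, against 2.43% and 6.15% of all genes, and the median difference was 1.25 against -0.12 over all genes. The rise of 4 of them (S100g, Krt19, Epas1 and Cdkn1c) was known when the list was written, and without these 4 the counts were 16 higher and 2 lower of 26, with a median of 1.11. After rescaling 23 of the 30 were higher, and without the replicate block 13 were.

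S100g, a vitamin D dependent calcium-binding protein of absorptive and placental epithelia, was at 4.06, 7.37 and 23.7 TPM in siCTL and at 44.8, 67.1 and 209 TPM in siOct4. Every siOct4 library was above every siCTL library, and the difference was 3.15 ± 0.20 (SE, limma adjusted p = 8.64e-06). Among the structural genes, Krt8 was at 53.9, 65.3 and 97.9 TPM in siCTL and at 165, 203 and 375 TPM in siOct4 (1.71 ± 0.23, SE, limma adjusted p = 0.00164). Its partner Krt18 was at 51.8, 71.0 and 84.5 TPM against 214, 281 and 534 TPM (2.20 ± 0.26, SE, limma adjusted p = 0.00106). Krt8 and Krt18 polymerise with each other, and neither gene's groups overlapped. Both have processed pseudogenes that can take part of their reads. Krt19 rose by 2.42 ± 0.19 (SE), from a median of 4.28 to 20.2 TPM, and Krt7 by 1.62 ± 0.18 (SE), from 5.20 to 14.4 TPM. The tight junction gene Cldn4 rose by 1.30 ± 0.14 (SE) although its groups overlapped, with 3.52 to 38.7 TPM in siCTL and 11.4 to 87.8 TPM in siOct4.

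**Figure D1:**
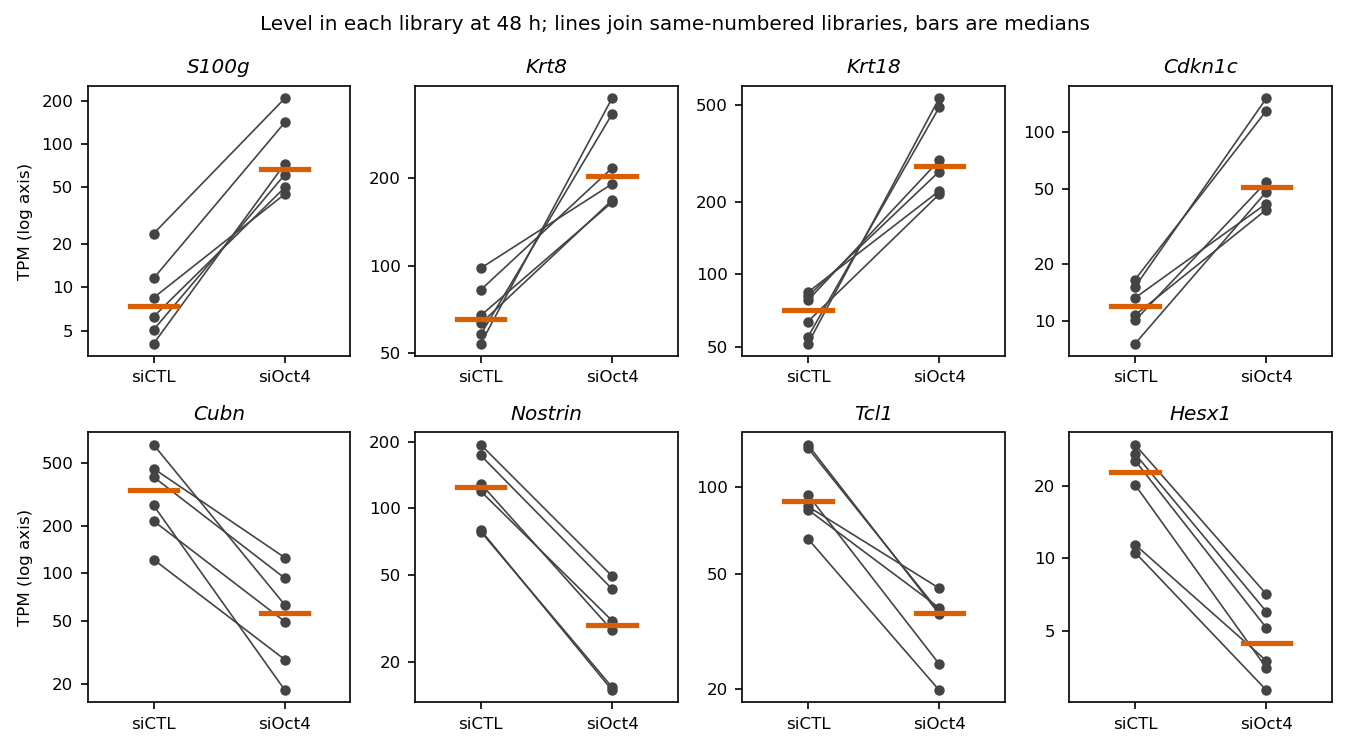
TPM on a log axis in each of the 12 libraries for 4 genes called higher (S100g, Krt8, Krt18, Cdkn1c) and 4 called lower (Cubn, Nostrin, Tcl1, Hesx1). Points are libraries, lines join same-numbered libraries and bars are group medians, and all 6 lines rise for each of the first 4 genes and fall for each of the others.

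Transcription factors of the trophectoderm rose from low levels. Gata2 was at 0.813, 1.76 and 3.87 TPM in siCTL and at 3.62, 5.40 and 19.9 TPM in siOct4 (1.59 ± 0.29, SE, limma adjusted p = 0.00651). Tfap2c, an AP-2 factor needed for trophoblast growth, went from a median of 8.29 to 16.8 TPM (1.11 ± 0.15, SE). Ascl2, a maternally expressed factor of placental progenitors, went from 3.26 to 7.27 TPM (1.20 ± 0.18, SE), and Hand1, a factor of giant cell differentiation, from 3.57 to 6.70 TPM (1.54 ± 0.35, SE, limma adjusted p = 0.0233). The best known trophectoderm regulators did not pass. Cdx2 was at 0.699, 0.972 and 1.38 TPM in siCTL and at 0.753, 2.01 and 4.15 TPM in siOct4, higher in 5 of 6 pairs (0.65 ± 0.22, SE, limma adjusted p = 0.0935, called after rescaling). Eomes, a factor of trophoblast stem cells and of early endoderm, was lower in 6 of 6 pairs with a difference of -0.54 ± 0.21 (SE, limma adjusted p = 0.129). Elf5, Gata3 and Tfap2a are not among the listed genes and were not analysed here. The 2 list members called lower, Elf3 (-0.90 ± 0.14, SE) and Dab2 (-0.95 ± 0.19, SE), are also genes of endoderm, an epithelial ETS factor and an endocytic adaptor.

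Placental and growth-restraining members were among the largest rises. Cdkn1c, an imprinted inhibitor of cyclin-dependent kinases, was at 7.54, 11.9 and 16.5 TPM in siCTL and at 38.8, 51.4 and 152 TPM in siOct4 (2.40 ± 0.21, SE, limma adjusted p = 6.39e-05). Phlda2, an imprinted inhibitor of placental growth, rose by 1.87 ± 0.15 (SE), from a median of 41.2 to 154 TPM. Plac1, a placental surface gene, rose by 1.78 ± 0.18 (SE), from 7.95 to 23.9 TPM. The homeobox genes Rhox6 and Rhox9, which neighbour each other on the X chromosome and are close enough in sequence to share reads, rose by 2.36 ± 0.18 and 2.24 ± 0.17 (SE). Epas1, the hypoxia-inducible factor HIF-2α, rose by 2.43 ± 0.19 (SE), from 3.58 to 30.8 TPM. The remaining members called higher were Sct (1.58), Tinagl1 (1.12), Arid3a (0.96) and Fabp3 (0.63).

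**Figure D2:**
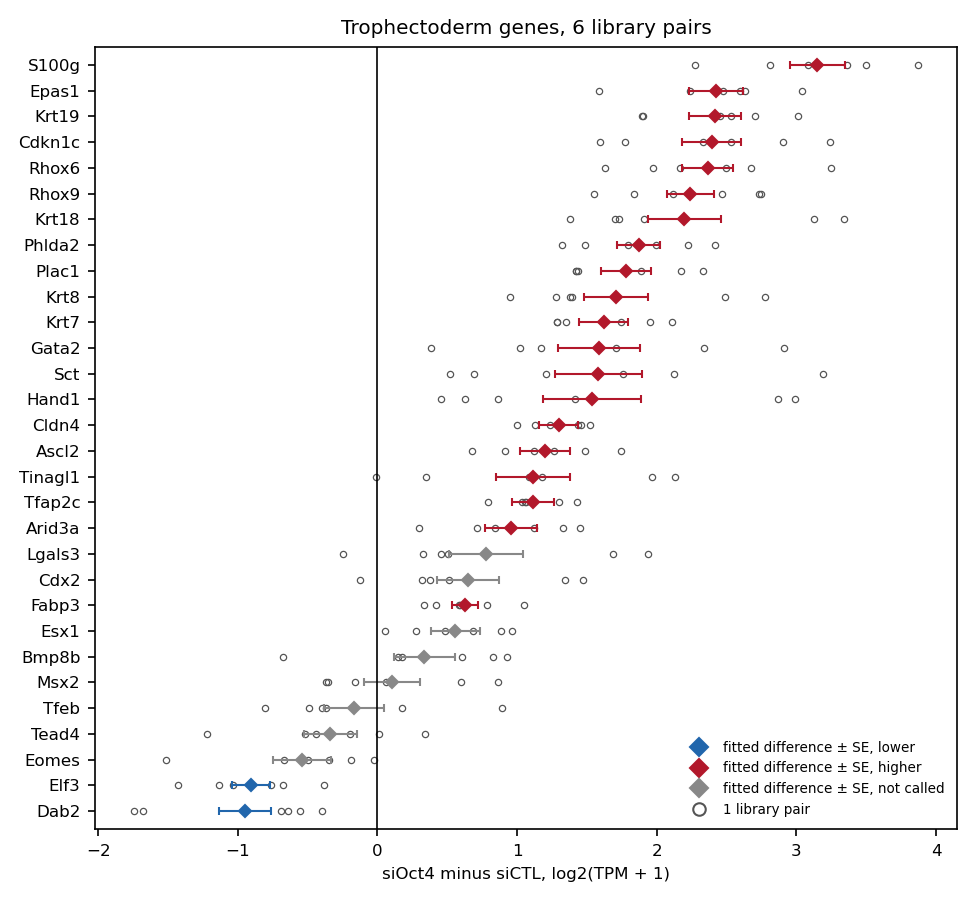
Difference siOct4 minus siCTL on the log2(TPM + 1) scale for the 30 trophectoderm genes tested. Open circles are the 6 library pairs and diamonds the fitted difference ± SE, red for the 20 genes called higher, blue for the 2 called lower and grey for the 8 not called.

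The rise differed in size between pairs. Over the 20 genes called higher, the median pair difference was 1.28, 1.37, 1.35 and 1.74 in pairs 1 to 4 and 2.34 and 2.23 in pairs 5 and 6. Krt18, for example, differed by 1.38 to 1.91 in pairs 1 to 4 and by 3.13 and 3.34 in pairs 5 and 6. The feeder marker sum moved alongside in part: in pairs 5 and 6 it was 91.3 and 104.5 TPM in siCTL against 519.7 and 461 TPM in siOct4. In pairs 1, 2 and 4 it was lower in siOct4 (158, 135 and 89.5 TPM against 384, 367 and 462 TPM). The 20 genes were called over these same pairs, so their sign in a pair was largely set by that choice. A link with the feeder markers was not tested. With replicates 5 and 6 left out, 16 of the 30 genes were called higher and the list's median was 1.05. Gata2 then differed by 1.07, and Hand1 (0.84), Tinagl1 (0.65), Sct (1.40) and Arid3a (0.74) no longer passed. In bulk RNA, more cells with a transcript and more transcript per cell cannot be told apart.

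The levels in induction libraries without siRNA put these values in context. S100g was listed at 0 at 0 h and at 13.2 ± 2.68 TPM (SD, n = 3) at 48 h, and Krt8 rose there from 7.58 ± 1.32 to 70.3 ± 6.37 TPM (SD, n = 3 each), near its siCTL median of 65.3 TPM. Krt8, Krt18, Krt7, S100g, Hand1, Ascl2 and Plac1 were thus called higher at 48 h of Dox alone and were higher again with siOct4. Epas1 went the other way by 48 h, from 14.2 ± 0.791 to 1.74 ± 0.351 TPM (SD, n = 3 each). It was then far above its 0 h level, at means of 269 TPM at 168 h and 221 TPM in XEN cells. List members went both ways there. Krt8 was at means of 361 TPM at 168 h and 433 TPM in XEN cells, while Ascl2 was at 0.501 and 0 TPM. Cdkn1c, Krt19, Phlda2 and Gata2 were not called at 48 h of Dox. Of the 30 trophectoderm genes tested, 18 were higher and 2 lower at 48 h against 0 h, where 21.1% and 10.9% of the listed genes were. The siRNA and induction tables were prepared apart, and levels across them are set side by side without a test.

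Epithelial and imprinted genes overlapped with this list. Of 28 keratin and junction genes tested, 8 were higher and 1 lower, with a median of 0.28. Besides the 4 keratins and Cldn4 these were Cldn3, a tight junction claudin (1.62 ± 0.21, SE), Pkp2 of desmosomes (0.94 ± 0.17, SE) and Crb3 of the apical polarity complex (0.86 ± 0.17, SE). Of 27 imprinted genes tested, 7 were higher and none lower, where 9 had a difference below 0. Apart from Cdkn1c, Phlda2 and Ascl2 these were the growth factor gene Igf2 (1.26 ± 0.16, SE, from a median of 79.6 to 157 TPM), the noncoding H19 (0.70 ± 0.18, SE), Sgce (1.18 ± 0.19, SE) and Slc22a18 (0.75 ± 0.18, SE). Cdkn1c, Phlda2 and Slc22a18 lie in the same imprinted cluster, as do Igf2 and H19. Ascl2 lies between Igf2 and Cdkn1c on chromosome 7, so none of these genes is independent of the others. No imprinted gene was called lower by limma after rescaling or without the block either. After rescaling 8 were called higher, and without the block 4 were. With replicates 1 and 2, 3 and 4, and 5 and 6 averaged, 5 were higher, as with replicates 5 and 6 left out. H19 was not called without the block, with these averages, or with replicates 3 and 4 or 5 and 6 left out.

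**Figure D3:**
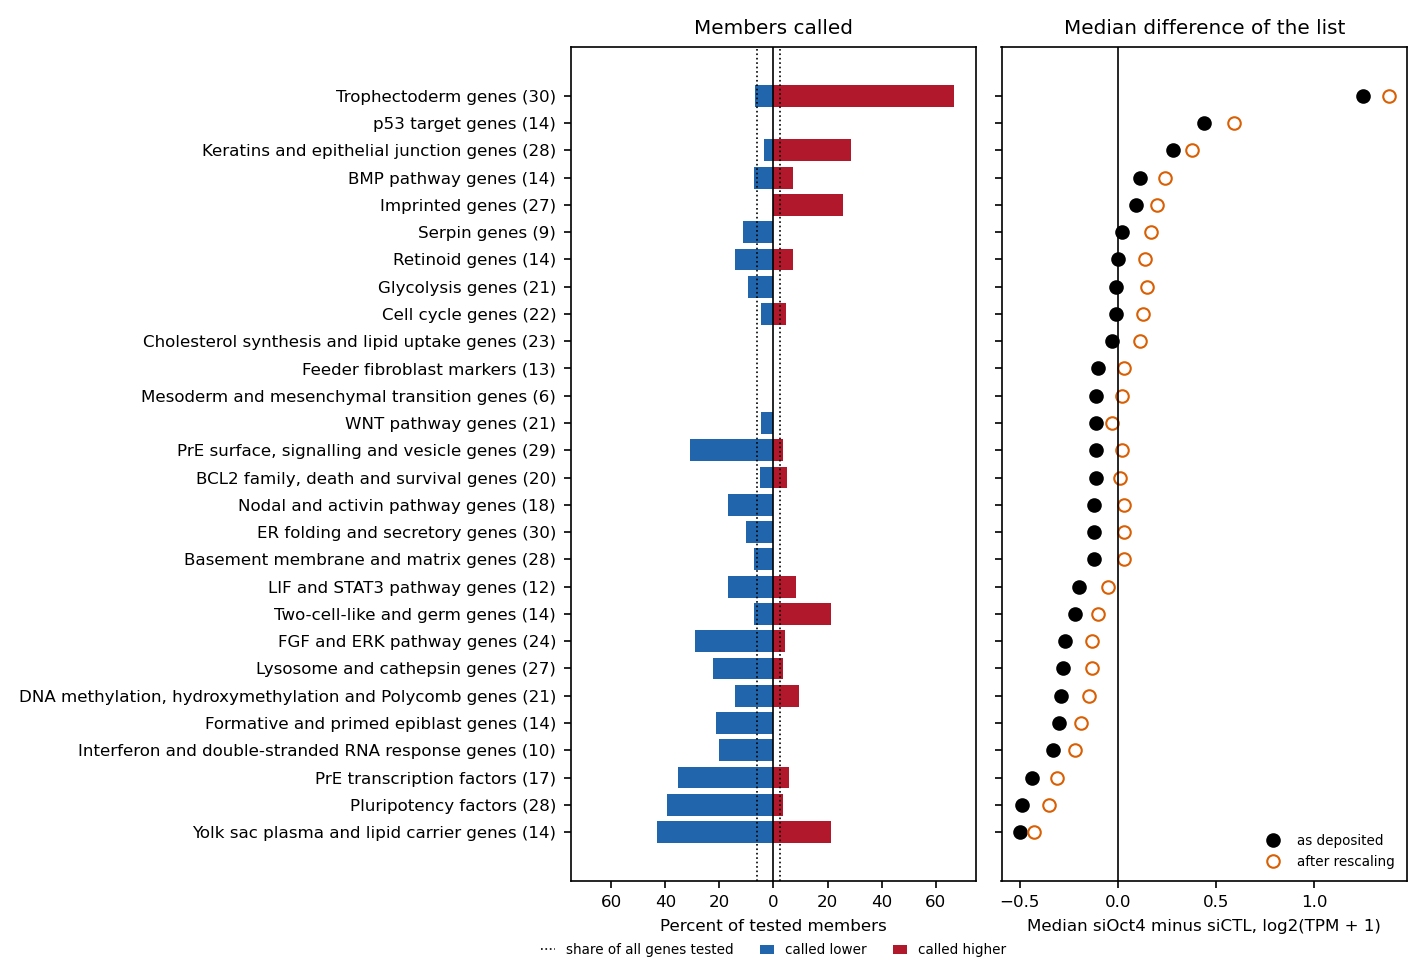
Left, percent of tested members called lower (blue, to the left of 0) and higher (red, to the right) in each of 28 gene lists, with the number tested in brackets and dotted lines at the share of all genes tested (6.15% and 2.43%). Right, median siOct4 minus siCTL difference of each list on the log2(TPM + 1) scale as deposited (filled) and after rescaling (open), where trophectoderm genes stand highest at 1.25 and 1.38.

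On the PrE side, the transcription factors split. Of 17 tested, 6 were called lower and 1 higher (Hand1, shared with the trophectoderm list), with a median of -0.44. Tfec, a MiT family factor, was at 4.38, 10.6 and 24.7 TPM in siCTL and at 0.713, 3.20 and 8.33 TPM in siOct4 (-1.52 ± 0.24, SE, limma adjusted p = 0.00292). Hnf4a, the nuclear receptor of visceral endoderm, was at 3.44, 4.53 and 17.2 TPM against 0.581, 1.86 and 3.24 TPM (-1.23 ± 0.25, SE, limma adjusted p = 0.0106). The groups of Hnf4a did not overlap, and siCTL replicate 4 stood highest. Foxq1 (-0.84 ± 0.13, SE), Sox7 (-0.79 ± 0.17, SE) and Gata4 (-0.60 ± 0.11, SE) were lower in 6 of 6 pairs, and Gata4, the GATA factor that follows Gata6, lost its call after rescaling (-0.45). Sox17, the SOX factor induced by GATA6, was at 35.6, 42.4 and 66.3 TPM in siCTL and at 27.5, 46.9 and 60.7 TPM in siOct4. Its difference of -0.03 ± 0.18 (SE, limma adjusted p = 0.941) had a sign that turned with the scaling, at 0.12 after rescaling. Without the replicate block only Foxq1 of these factors was called lower, and with replicates 3 and 4 left out 4 of them were.

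Cubn had the largest fall of all genes tested. Among 29 surface, signalling and vesicle genes of the PrE, 9 were lower and 1 higher, with a median of -0.11, close to the median of all genes. Cubn, the receptor cubilin, was at 122, 337 and 649.8 TPM in siCTL and at 18.2, 56.3 and 126 TPM in siOct4, lower in 6 of 6 pairs although the groups overlapped (-2.55 ± 0.26, SE, limma adjusted p = 4.58e-04). Amn, which anchors cubilin in the membrane, was at 16.1, 32.1 and 58.4 TPM against 6.09, 11.3 and 15.1 TPM (-1.43 ± 0.18, SE, limma adjusted p = 8.17e-04), without overlap. Dab2, the adaptor that links such receptors to clathrin, was at 538, 755 and 1732 TPM against 221, 483 and 630.4 TPM (-0.95 ± 0.19, SE, limma adjusted p = 0.0114). Lrp2, the receptor megalin that works beside cubilin, had the same direction in 5 of 6 pairs and did not pass (-0.71 ± 0.28, SE, limma adjusted p = 0.162). Its chaperone Lrpap1 was lower without overlap but under the fold minimum (-0.47 ± 0.09, SE). Pairs 2 and 4 had the largest falls of Cubn (-3.81 and -3.34) and of Lrp2 (-1.92 and -1.74). With the gene length trend removed, Cubn differed by -2.32, Dab2 by -0.78 and Lrp2 by -0.48. Nostrin, a vesicle-trafficking adaptor, fell by 2.11 ± 0.12 on the log2 scale (SE), and Clic5, a chloride channel family member of microvilli, by 1.86 ± 0.20 (SE). Emb fell by 0.96 ± 0.12 (SE) without overlap between groups.

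Pdgfra, the PDGF receptor that marks PrE, was at 103, 205 and 274 TPM in siCTL and at 68.4, 129 and 150.4 TPM in siOct4 (-0.71 ± 0.16, SE, limma adjusted p = 0.0206). Fgfr2 (-0.61 ± 0.16, SE) and the folate receptor gene Folr1 (-0.56 ± 0.16, SE) passed as deposited and not after rescaling. The member called higher was Gatm, at a median of 0.984 TPM in siCTL and 1.86 TPM in siOct4. Without the replicate block 5 of these genes were called lower.

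Basement membrane genes moved little. Of 28 tested, 2 were lower, the collagen-modifying enzymes P4ha2 (-0.78 ± 0.14, SE) and Plod1 (-0.65 ± 0.11, SE), and none higher, and Plod1 was not called after rescaling. The laminin chains are among the most abundant PrE products. Lama1 was at 743, 918 and 1677 TPM in siCTL and at 551, 906 and 961 TPM in siOct4 (-0.33 ± 0.12, SE, limma adjusted p = 0.118). Lamb1 differed by -0.24 ± 0.12 (SE, limma adjusted p = 0.23) and Lamc1 by -0.17 ± 0.13 (SE, limma adjusted p = 0.442). The perlecan gene Hspg2 differed by -0.58 ± 0.17 (SE, limma adjusted p = 0.0589). These p-values do not show that the genes were unchanged.

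Secreted and lysosomal products of the yolk sac endoderm were mixed. Of 14 genes tested in the plasma and lipid carrier list, 6 were lower and 3 higher, with a median of -0.50. The list is wider than its name and also holds Amn, Dpp4 and the noncoding H19. Lower were Apoe (-0.87 ± 0.20, SE, in 5 of 6 pairs), Ahsg (-0.86 ± 0.16, SE), Dpp4 (-0.82 ± 0.23, SE), Apom (-0.78 ± 0.21, SE), Cpn1 (-0.77 ± 0.20, SE, in 5 of 6 pairs) and Amn. Higher were the fatty acid binding proteins Fabp5 (0.94 ± 0.14, SE) and Fabp3 (0.63 ± 0.10, SE), together with H19. Without the replicate block 2 of the 14 were lower and none higher, and with replicates 1 and 2, 3 and 4, and 5 and 6 averaged 1 was lower and 2 higher. After rescaling Apoe (limma adjusted p = 0.0936), Apom (0.0525) and Cpn1 (0.0613) were not called. Of 27 lysosomal genes tested, 6 were lower and 1 higher. Ctsl, a cathepsin abundant in visceral endoderm, was at 1473, 1706 and 2003 TPM in siCTL and at 711, 1102 and 1186 TPM in siOct4, without overlap (-0.81 ± 0.09, SE, limma adjusted p = 4.40e-04). Ctsc (-1.32 ± 0.17, SE) and the hexosaminidase gene Hexa (-1.01 ± 0.14, SE) fell with it, as did Ctsh (-0.73), Glb1 (-0.61) and Gusb (-0.60), and the last 3 lost their calls after rescaling. Psap, which encodes the saposin precursor, was higher (0.52 ± 0.14, SE). Among 30 genes of the secretory pathway 3 were lower, Creb3l1 (-1.75 ± 0.28, SE), a membrane-bound factor of secretory cells, and the COPII coat genes Sec24d (-0.53) and Sec31a (-0.52), and only Creb3l1 of these kept its call after rescaling, without the block or with the replicate sets averaged.

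**Figure D4:**
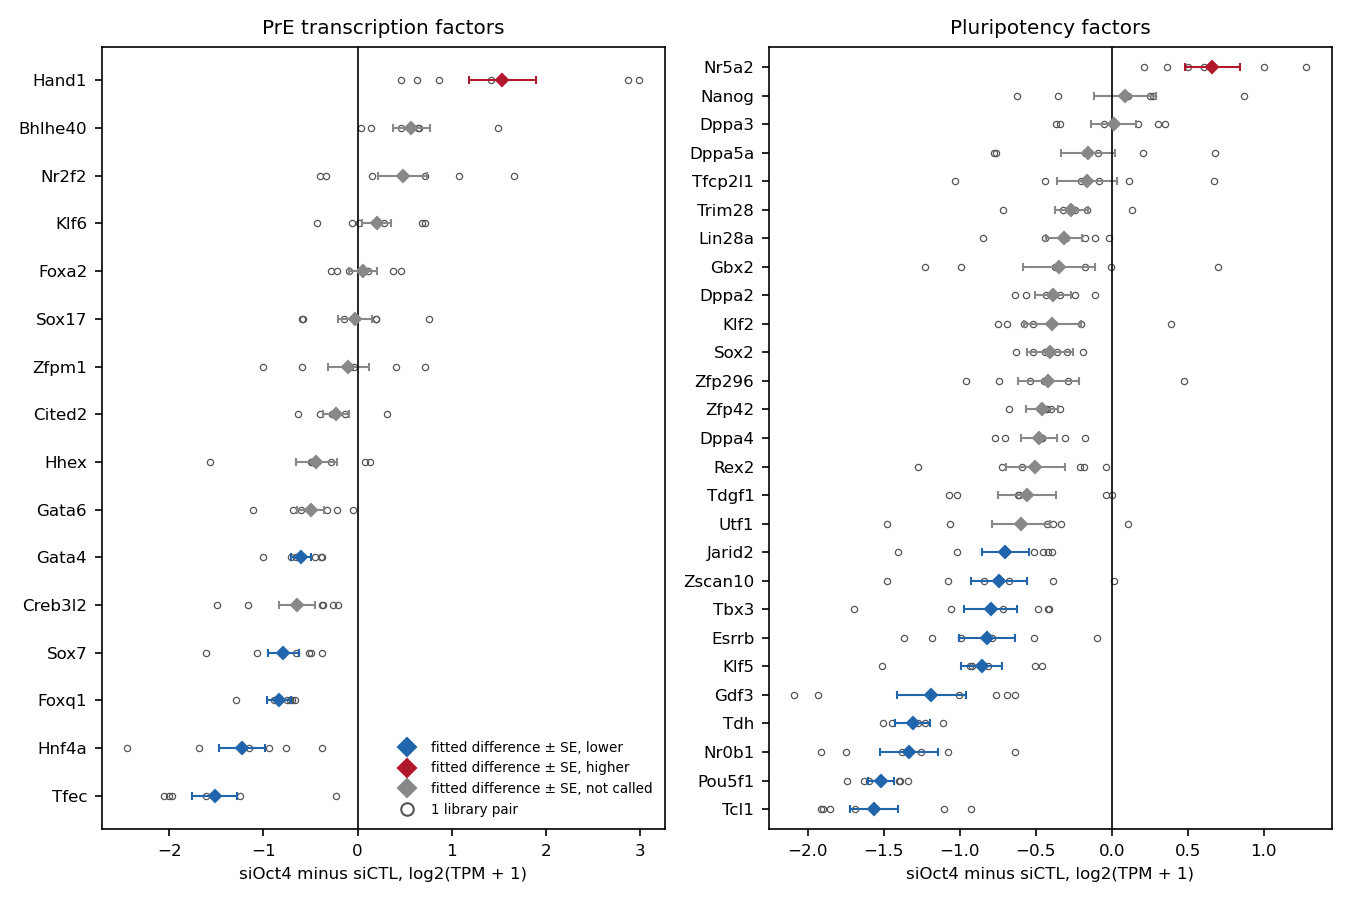
Difference siOct4 minus siCTL on the log2(TPM + 1) scale for 16 of the 17 PrE transcription factors tested (left) and 27 of the 28 pluripotency factors tested (right). Open circles are the 6 library pairs and diamonds the fitted difference ± SE, with 5 and 10 genes called lower in blue, 1 in each panel called higher in red and the others in grey.

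Pluripotency factors moved unevenly. Of 28 tested, 11 were lower and 1 higher, with a median of -0.49, and the 11 include the siRNA target Pou5f1. A difference below 0 was found for 25 of the 28, against 4189 of all 6264 genes. Tcl1, an AKT coactivator that is a known Oct4 target, was at 66.2, 89.7 and 139.8 TPM against 19.9, 36.7 and 44.7 TPM (-1.56 ± 0.16, SE, limma adjusted p = 2.02e-04). Tdh, the threonine dehydrogenase of ES cell metabolism, was at 50.4, 79.0 and 95.8 TPM against 21.0, 29.8 and 41.5 TPM (-1.31 ± 0.12, SE, limma adjusted p = 6.39e-05). Tcl1 and Tdh did not overlap between groups. Nr0b1 (-1.33 ± 0.19, SE), Gdf3 (-1.19 ± 0.23, SE), Klf5 (-0.86 ± 0.14, SE), Esrrb (-0.82 ± 0.18, SE), Tbx3 (-0.80 ± 0.18, SE), Zscan10 (-0.74 ± 0.18, SE) and Jarid2 (-0.70 ± 0.16, SE) were also called lower. Nanog and Sox2, which act with Oct4, did not pass. Nanog was at 2.53, 9.08 and 30.7 TPM in siCTL and at 4.25, 6.22 and 33.1 TPM in siOct4 (0.09 ± 0.20, SE, limma adjusted p = 0.829). Sox2 was at 2.87, 5.94 and 33.8 TPM against 2.39, 3.97 and 23.3 TPM, lower in 6 of 6 pairs (-0.41 ± 0.15, SE, limma adjusted p = 0.124). Both had already fallen in the induction libraries, from 281 ± 15.3 to 27.8 ± 7.87 TPM and from 323 ± 24.2 to 47.7 ± 6.17 TPM between 0 h and 48 h (SD, n = 3 each). Zfp42 (-0.46 ± 0.11, SE) and Dppa4 (-0.48 ± 0.12, SE) passed the adjusted p but not the fold minimum. Nr5a2, a nuclear receptor that can stand in for Oct4 in reprogramming, was the member called higher, at 0.328, 1.11 and 3.65 TPM against 0.881, 2.42 and 6.40 TPM (0.66 ± 0.18, SE, limma adjusted p = 0.0426). Without the replicate block 5 of the 28 were called lower and 0 higher. Nr5a2 was also not called with the replicate sets averaged, or with replicates 3 and 4 or 5 and 6 left out.

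Of 14 genes of the formative and primed epiblast tested, 3 were lower and none higher. Hesx1, a homeobox gene of the anterior epiblast and endoderm, was at 10.6, 22.8 and 29.6 TPM in siCTL and at 2.83, 4.44 and 7.08 TPM in siOct4, without overlap (-1.88 ± 0.17, SE, limma adjusted p = 6.99e-05). The DNA methyltransferase gene Dnmt3a fell by 1.19 ± 0.16 on the log2 scale (SE). The demethylating dioxygenase gene Tet2 fell by 1.21 ± 0.25 (SE), from a median of 42.4 to 14.1 TPM, although siCTL replicate 3 was also low at 6.69 TPM. In the list of 21 DNA methylation and Polycomb genes, 3 were lower (with Jarid2) and 2 higher, Rbbp7 (0.56 ± 0.08, SE) and Pcgf5 (0.79 ± 0.13, SE).

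Signalling genes moved in small numbers. In the FGF and ERK pathway 7 of 24 tested were lower and 1 higher. The ligands Fgf3 (-0.64 ± 0.14, SE) and Fgf10 (-0.58 ± 0.16, SE), the receptor Fgfr2, the targets Egr1 (-1.37 ± 0.33, SE), Etv4 (-0.86 ± 0.16, SE) and Spry4 (-0.68 ± 0.18, SE) and the phosphatase gene Dusp4 (-0.87 ± 0.18, SE) fell. The ERK phosphatase gene Dusp9 rose from 64.2, 71.1 and 166 TPM to 132, 249 and 288 TPM (1.25 ± 0.17, SE, limma adjusted p = 0.00124). After rescaling 3 of these were lower, and without the replicate block none was called lower by limma. Etv4, Spry4 and Dusp4 were lower in 6 of 6 pairs, and Egr1 in 5 of 6. In the Nodal pathway 3 of 18 were lower, the ligand Gdf3, the antagonist Lefty2 (-0.75 ± 0.21, SE) and the receptor Acvr1b (-0.68 ± 0.18, SE). Neither Lefty2 nor Acvr1b was called by limma without the block or with the replicate sets averaged. In the BMP pathway, of 14 tested, the ligand Bmp6 was lower without overlap (-1.16 ± 0.20, SE) and the antagonist Nog higher (1.10 ± 0.26, SE, in 5 of 6 pairs). Nog was at 0 to 1.61 TPM in siCTL. It was not called without the block, with the replicate sets averaged, or with replicates 3 and 4 or 5 and 6 left out. In the WNT pathway the antagonist Dkk1 was the 1 of 21 called, at 53.7, 71.6 and 119.8 TPM against 20.8, 40.3 and 45.3 TPM (-1.09 ± 0.14, SE, limma adjusted p = 8.17e-04). In the LIF pathway, of 12 tested, Socs1 (-0.87 ± 0.18, SE) and the receptor Lifr (-0.79 ± 0.20, SE) were lower and the ligand Lif higher (0.70 ± 0.19, SE). None of these LIF pathway genes was called by limma without the block or with the replicate sets averaged, and each was after rescaling.

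The retinoic acid hydroxylases went in opposite directions. Cyp26a1 was at 3.21, 4.30 and 4.42 TPM in siCTL and at 7.66, 23 and 37.4 TPM in siOct4 (2.02 ± 0.26, SE, limma adjusted p = 9.30e-04). Cyp26b1 was at 4.26, 6.31 and 14.5 TPM against 0.962, 1.65 and 2.44 TPM (-1.54 ± 0.21, SE, limma adjusted p = 0.00105). Neither gene's groups overlapped, and both kept their calls after rescaling and without the block. Both had risen at 48 h of Dox alone, by 2.45 and 2.26 on the log2 scale. Of the 14 retinoid genes tested, the remaining call was Aldh1a3, a retinoic acid synthase (-0.76 ± 0.20, SE).

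Few genes were called in the remaining lists. Of 20 genes of the BCL2 family, death and survival, Bik, a pro-apoptotic gene, was higher (0.88 ± 0.17, SE) and Pdgfra lower. Of 14 p53 targets none was called by limma with or without the block, and their median was 0.44. After rescaling 8 were higher, among them Mdm2 (0.60), Ccng1 (0.66) and Perp (1.05), and with replicates 5 and 6 left out the median was 0.22. Of 22 cell cycle genes Cdk2 was lower (-0.53 ± 0.10, SE, and not called after rescaling, at -0.38, or without the block) and Cdkn1c higher, and of 21 glycolysis genes Eno2 (-0.98) and Pfkp (-0.84) were lower. Of 10 interferon and double-stranded RNA response genes, none was higher and 2 were lower, among them Ddx58 (-1.05 ± 0.18, SE), a sensor of double-stranded RNA. Of 23 genes of cholesterol synthesis and lipid uptake and 6 of mesoderm, none was called by limma with or without the block. Serping1 was the 1 of 9 serpin genes called (-0.65 ± 0.13, SE). Of 14 two-cell-like and germ genes, Taf7l (1.12 ± 0.20, SE), Rhox6 and Rhox9 were higher and Nr0b1 lower.

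Among genes outside the lists that were lower, Srgn, the core protein of secretory granule proteoglycans, was at 1115, 1453 and 1777 TPM in siCTL and at 367, 623 and 740.4 TPM in siOct4 (-1.31 ± 0.09, SE, limma adjusted p = 2.25e-05). Srgn had risen during induction from 0.217 ± 0.11 TPM at 0 h to 672 ± 89.4 TPM at 48 h (SD, n = 3 each). Ly6e, a surface protein with a role in the placenta, was at 127, 168 and 174 TPM against 33.3, 60.3 and 70.7 TPM (-1.50 ± 0.12, SE, limma adjusted p = 3.43e-05). Epithelial genes in this set were Myo7a, an unconventional myosin (-2.02 ± 0.23, SE), Crb2, an apical polarity gene (-1.56 ± 0.19, SE), the water channel Aqp8 (-1.39 ± 0.14, SE) and the brush border protease Mep1b (-1.42 ± 0.17, SE). Ramp2 (-1.98 ± 0.20, SE) and the thrombin receptor F2r (-1.35 ± 0.15, SE) are receptor components. Lrrk1 (-1.70), Cyp4f14 (-1.79), AA986860 (-1.69), Glb1l2 (-1.66), Apobec2 (-1.66), Slc37a2 (-1.35), Htra1 (-1.29) and Spp1 (-1.08) complete the set, and each was lower in 6 of 6 pairs. For genes named as the largest falls, that sign was a condition of the choice.

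Among genes outside the lists that were higher, Bex1 was at 286, 364 and 397 TPM in siCTL and at 777, 999 and 1176 TPM in siOct4 (1.46 ± 0.10, SE, limma adjusted p = 2.25e-05). Mbnl3, a splicing regulator, was at 7.95, 16.6 and 23 TPM against 33.4, 63.1 and 73.4 TPM (1.80 ± 0.14, SE, limma adjusted p = 2.82e-05). Pdpn, a surface mucin, was at 11.6, 18.2 and 35.0 TPM against 56.0, 75.6 and 163 TPM (2.13 ± 0.15, SE, limma adjusted p = 2.25e-05). The groups of Bex1, Mbnl3 and Pdpn did not overlap. 3830417A13Rik (2.59 ± 0.21, SE), Ppp1r16b (2.17 ± 0.18, SE), Fgfbp1 (1.70 ± 0.18, SE), Nppb (1.70 ± 0.21, SE), Batf3 (1.66 ± 0.18, SE), Sprr2a2 (1.62 ± 0.20, SE), Vgll1 (1.54 ± 0.19, SE), Tuft1 (1.27 ± 0.15, SE), Mt2 (0.95 ± 0.11, SE) and Bex3 (0.85 ± 0.10, SE) were higher in 6 of 6 pairs. For genes named as the largest rises, that sign was a condition of the choice. Sprr2a2 belongs to a family of near-identical genes and its value is uncertain.

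The differences were set beside the changes during induction, measured in libraries that the siRNA comparison does not share. Of the 385 genes lower with siOct4, 242 (62.9%) were higher at 48 h of Dox against 0 h, 38 (9.87%) were lower and 105 were not called, where 21.1% and 10.9% of the 6262 listed genes tested in both tables were higher and lower. Of the 152 genes higher with siOct4, 37 (24.3%) were higher and 21 (13.8%) lower at 48 h. Read the other way, the 242 genes were 18.3% of the 1323 genes induced at 48 h, so most induced genes were not called with siOct4. Their median difference was -0.27, against -0.09 for listed genes not called at 48 h and -0.10 for those lower at 48 h. At 168 h of Dox, 187 of the 385 (48.6%) were higher and 104 (27.0%) lower, near the 48.1% and 28.7% of all 6262 genes. In XEN cells 114 (29.6%) were higher and 132 (34.3%) lower than at 0 h, against 35.1% and 26.0% of all. Of the 152, 74 (48.7%) were higher at 168 h, also near the share of all genes. In XEN cells 79 of the 152 (52.0%) were higher and 30 (19.7%) lower, against 35.1% and 26.0% of all. Across the 6262 genes the Pearson correlation of the siOct4 difference with the 48 h change was -0.22, a description over genes that share the same libraries. Induced genes with large falls were Cubn, Nostrin and Srgn, while Gata4 and Sox17, induced by 7.20 and 6.99 on the log2 scale, differed by -0.60 and -0.03. The genes lower with siOct4 that had fallen during induction included Nr0b1 (-2.33 at 48 h), Gdf3 (-2.10) and Esrrb (-2.07).

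**Figure D5:**
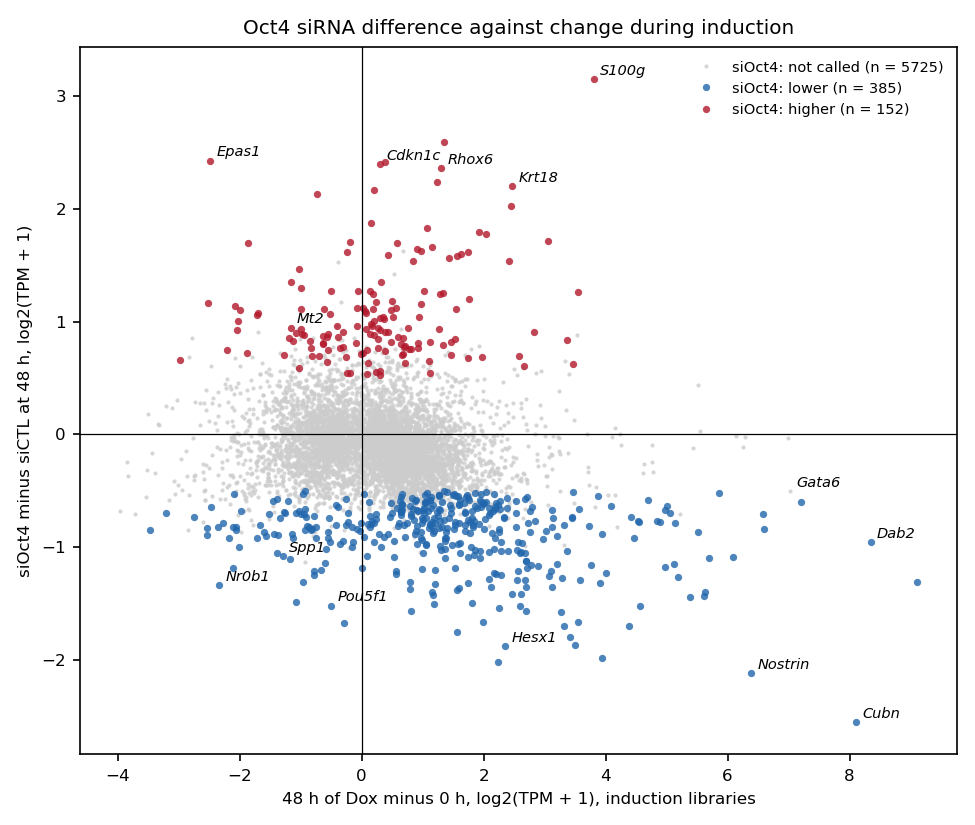
Change between 0 h and 48 h of Dox in the induction libraries (horizontal axis) against the siOct4 minus siCTL difference at 48 h (vertical axis), both on the log2(TPM + 1) scale, for 6262 genes. Blue points are the 385 genes called lower, red the 152 called higher and grey the others. Most blue points lie to the right of 0, with Cubn at 8.10 and -2.55, and red points lie on either side, with S100g at 3.81 and Epas1 at -2.48.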

How the data were processed

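RNA-seq was made from polyA RNA with a stranded, directional kit. The authors used STAR (mm10) and RSEM on the paired-end reads, omitted outliers on the first principal component, and deposited TPM. Whether these outliers were samples or genes is not stated. The submitters' notes also name bcl2fastq and cutadapt, and versions and annotation are not given in the sources used here. The columns of the authors' own response classes and siOct4 effect were not used. Because the deposited unit is TPM, no count test was run.

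Genes entered when either group's mean reached 1 TPM, and log2(TPM + 1) was fitted with limma 3.58.1 in R 4.3.3 (lmFit, eBayes with trend and robust options), with siRNA and replicate number as terms. p-values were adjusted by Benjamini-Hochberg over 6264 genes. Same-numbered libraries were paired because the comparison was defined so, and the knockdown experiments are described as independent. In each of the 6 pairs their deviations from the group means correlated above 0.1 (mean 0.33, other numbers -0.06). This does not single out the pairing for every library. The best match of siCTL replicate 2 was siOct4 replicate 1 (0.34 against 0.24). That of siCTL replicate 5 was siOct4 replicate 6 (0.31 against 0.27). The fit was tested on simulated data. Pou5f1 and Gata6 were also compared with 2-sided exact tests over 64 sign patterns and 924 arrangements of the labels. For Pou5f1 the p-values were 0.0312 and 0.00216, the smallest these tests can give, and for Gata6 0.0312 and 0.0541 (0.125 and 0.199 after rescaling). Induction changes came from a limma fit over 23 libraries, called above 1 on the log2 scale. Each of 60 symbols on several rows of the induction table was taken from the row with the highest mean. Exon lengths came from GENCODE M21 for 98.6% of the listed genes. Python 3.11.15 with numpy 2.4.6 and pandas 2.3.3 was used for summaries. The members and the 28 gene lists were chosen with earlier results of these data known. Named genes were Pou5f1 and Gata6, the 12 largest rises and falls called in all 6 pairs whose mean reached 5 TPM in 1 group, list members, and the 10 smallest adjusted p-values per direction outside the lists, and others are named as chosen after their values were seen. Alternatives are given at the end. Some list members are counted but not reported here by name.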

Additional observations from a re-analysis of the deposited data

Results flagged for a closer look

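Among 314 sets of 6 libraries screened, 27 had 1 library whose gap to the nearest other was above Dixon's 95% limit as a share of the range, where chance flags about 1 in 20 sets, 15.7 here. The sets share the same 12 libraries, so they are not independent and 15.7 is only a rough guide. Of the 27, 8 were in siCTL replicate 3 and 15 in siCTL replicate 4. Values are log2(TPM + 1), with the range of the other 5 libraries in brackets. In siCTL replicate 3 the library stood apart for Ccng1 at 6.51 (7.19 to 7.51), Fgfr2 at 4.77 (6.44 to 7.17), Mdm2 at 5.26 (6.38 to 6.70) and Pdgfra at 6.70 (7.61 to 8.10). The same library stood apart for Perp at 2.28 (3.05 to 3.47), Runx1 at 4.38 (5.44 to 6.04), Slc37a2 at 2.60 (3.23 to 3.60) and Tet2 at 2.94 (5.19 to 5.76). In siCTL replicate 4 the library stood apart for AA986860 at 6.15 (4.44 to 5.03), Bex1 at 8.17 (8.49 to 8.64), Cyp26b1 at 3.95 (2.39 to 2.95) and Dab2 at 10.76 (9.07 to 9.70). The same library stood apart for Gata6 at 7.64 (6.55 to 6.82), Hnf4a at 4.18 (2.15 to 2.58), Lamc1 at 10.92 (9.80 to 10.14) and Lifr at 6.84 (5.09 to 5.27). The same library stood apart for Pcgf5 at 6.47 (5.58 to 5.77), Plod1 at 7.44 (6.52 to 6.76), Rhox6 at 3.72 (5.20 to 6.00) and Slc22a18 at 0.34 (0.74 to 0.94). The same library stood apart for Sox17 at 6.07 (5.19 to 5.48), Sox7 at 7.53 (5.70 to 5.97) and Tuft1 at 2.94 (2.39 to 2.53). In siCTL replicate 6 the library stood apart for Pparg at 0.51 (0.95 to 1.22). In siOct4 replicate 2 the library stood apart for Ramp2 at 1.72 (2.65 to 2.94). In siOct4 replicate 4 the library stood apart for Htra1 at 7.06 (6.57 to 6.71). In siOct4 replicate 6 the library stood apart for Apom at 1.16 (0.52 to 0.74).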

How the results depend on the processing

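Counts are given as lower and higher. Against 385 and 152 genes with the pairing, the fit with no replicate block called 108 and 59, median-of-ratios rescaling 296 and 307, removal of the gene length trend 298 and 328, a 5 TPM filter on the group means 309 and 110, no filter 385 and 153, an adjusted p under 0.01 gave 157 and 80, and a pseudocount of 0.1 called 382 and 152. Leaving out 1 replicate number at a time gave 235 to 310 and 110 to 168. Chosen after seeing the data, averaging replicates 1 and 2, 3 and 4, and 5 and 6 gave 154 and 71, leaving out replicates 3 and 4 gave 213 and 124, and leaving out 5 and 6 gave 246 and 84. With no replicate block, 13 trophectoderm genes were higher, and 5 pluripotency factors, 1 PrE transcription factor and 5 PrE surface genes were lower. Gata6 did not pass after rescaling (-0.35, limma adjusted p = 0.12), with no replicate block (0.326) or with averaged replicates (0.163). It differed by -0.38 to -0.59 with 1 replicate left out, and passed without replicate 3 (-0.59, limma adjusted p = 0.0486) and under the 5 TPM filter (limma adjusted p = 0.0459, under the fold minimum). Pou5f1 kept its call throughout (-1.36 to -1.55). Of the named genes not called, 3 turned sign: Nanog to -0.069 without replicate 3 (-0.069 to 0.23 with 1 replicate left out) and -0.15 without 3 and 4, Sox17 to 0.12 after rescaling, 0.11 with the length trend removed and 0.08 without replicate 1 and 0.084 without 2 (-0.18 to 0.084 with 1 left out), and Cdkn1a, at 0.68, to -0.025 without 5 and 6. The causes were not tested. TPM keep no depth, so low values have no counting limit here.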

Other observations

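The following genes were chosen after their values were seen. On the X chromosome 28 of 259 genes tested (10.8%) were called higher and 18 (6.95%) lower, where 123 of 5917 autosomal genes (2.08%) were higher and 360 (6.08%) lower. Outside the trophectoderm list 24 of 254 X-linked genes were higher. Without the replicate block 17 of the 259 were called higher, after rescaling 34, and with replicates 5 and 6 left out 23. Some of these genes lie next to each other and are related in sequence, such as Bex1 (1.46), Bex3 (0.85), Tceal5 (1.27), Tceal7 (0.64) and Tceal9 (0.86), or Rhox6 (2.36) and Rhox9 (2.24), so the count is not one of independent genes.

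Of further genes with placental roles, 4 that were higher are given here, picked for their rise, while Ly6e, which also has a placental role, was lower. Dlx3, a homeobox gene of the placental labyrinth, was at 0.324, 0.478 and 0.699 TPM (lowest, median and highest) in siCTL and at 0.603, 2.03 and 6.20 TPM in siOct4 (1.24 ± 0.24, SE). Pparg, a nuclear receptor needed in the placenta, was at 0.421, 0.965 and 1.33 TPM against 1.44, 4.48 and 7.92 TPM (1.35 ± 0.29, SE), without overlap, but was not called with replicate sets averaged (limma adjusted p = 0.101), without replicates 3 and 4 (0.121) or without 5 and 6 (0.0829). The kinase gene Nrk rose by 1.60 ± 0.27 and the receptor gene Kit by 1.35 ± 0.23 (SE). Without replicates 3 and 4 Kit was not called (limma adjusted p = 0.0537), and without the block neither Dlx3 (0.0554) nor Nrk (0.0933) was. Runx1, a factor of blood formation that had risen at 48 h of Dox from 0.694 ± 0.595 to 56.1 ± 2.59 TPM (SD, n = 3 each), was lower with siOct4 (-1.15 ± 0.17, SE).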
